A study of Mus musculus with 6 samples.

Results

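Iron handling and ferroptosis defence were followed through 10 genes, Tfrc, Slc40a1, Fth1, Ftl1, Ncoa4, Hmox1, Slc7a11, Gpx4, Acsl4 and Nfe2l2, by droplet sequencing of single hippocampal cells of aged mice. The genes were chosen by symbol, with earlier results of these data known, and all 10 were found among the 31253 genes of the count tables. The Sevoflurane group held 3 libraries, from mice that breathed 2% sevoflurane, a general anaesthetic, for 6 h, and the Control group held 3 libraries from mice given air in its place. Hippocampus was collected 24 h later in both groups and digested with collagenase, and the cells were cryopreserved, in all libraries alike. The labels describe 6 elderly mice and give neither strain nor sex, and they do not state that each library is a separate animal. The p-values below therefore measure the spread between libraries, which may be technical.

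Iron enters cells on transferrin through the transferrin receptor (Tfrc), is stored in ferritin built of heavy (Fth1) and light (Ftl1) chains, is released from ferritin when Ncoa4 carries it to lysosomes, and leaves cells through ferroportin (Slc40a1). Ferroptosis is a form of cell death driven by iron-dependent peroxidation of membrane lipids. Slc7a11, the light chain of the cystine/glutamate exchanger, brings in cystine for glutathione, Gpx4 uses glutathione to reduce lipid peroxides, and Acsl4 loads polyunsaturated fatty acids into the membranes that peroxidise. Nfe2l2 encodes NRF2, a transcription factor of antioxidant genes, and Hmox1 encodes heme oxygenase 1, which frees iron from heme.

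In cells, part of this system is set after transcription. Iron regulatory proteins bind hairpins called iron-responsive elements in several of these mRNAs, blocking translation from the 5′ untranslated region and stabilising the mRNA from the 3′ untranslated region. The elements were searched in the GENCODE M21 transcripts (GRCm38) of the 10 genes, as an unpaired C, a loop CAGTGN and at least 4 base pairs in each of its stems. Fth1, Ftl1 and Slc40a1 each held 1 element in the 5′ untranslated region of exon 1, Tfrc held 4 in the 3′ untranslated region of exon 19, and no match was found in the other 6 genes. The elements of Fth1, Ftl1 and Slc40a1 are given below, with the first and last of the 4 in Tfrc. They are shown because mRNA counts, which are all that was measured here, do not report control of translation. For Tfrc, the counts do not separate the stability of the mRNA from its transcription. The loop is in capitals.
Fth1, chr19:9982733-9982759 (+): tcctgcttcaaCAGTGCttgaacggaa
Ftl1, chr7:45459780-45459806 (−): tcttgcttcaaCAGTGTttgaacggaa
Slc40a1, chr1:45925466-45925492 (−): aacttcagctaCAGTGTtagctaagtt
Tfrc, chr16:32631220-32631246 (+): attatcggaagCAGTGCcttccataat
Tfrc, chr16:32631711-32631737 (+): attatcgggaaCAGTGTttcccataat

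Libraries held 59589143 to 70741809 UMIs (unique molecular identifiers, each standing for 1 captured transcript) in Sevoflurane and 54426522 to 68544056 in Control. After filtering, 8016 to 8996 cells per library were kept in Sevoflurane and 6645 to 8099 in Control, and no pair of libraries shared more than 0.333% of its barcodes. Cells were clustered with the members and related genes left out of the variable genes. Clusters were named from marker lists, so that neuron, astrocyte and so on are short for neuron-like and astrocyte-like. UMIs were summed per library in 8 classes and 5 neuron subclasses that had at least 20 cells in every library. Of the markers of each class, between 8 of 9 (fibroblast) and 12 of 12 (oligodendrocyte, microglia and endothelial) were highest in the class they name, except for neurons with 9 of 12 and astrocytes with 10 of 12. The endothelial cluster was also led by Rgs5, a marker of mural cells, and by the haemoglobin gene Hbb-bs. With clustering at resolution 2 its marker score was 5.65 for endothelial cells and 4.17 for erythroid cells. The part of erythroid RNA in its levels was not tested. Sevoflurane 1 differed from the rest in sex-linked genes, with 1397 CPM (UMI counts scaled to a common library total) of Xist against at most 1.27 CPM in the other 5 libraries. The neurons of Sevoflurane also held a cluster of 635 inhibitory cells led by Zfhx3, of which 97.5% came from Sevoflurane.

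Endothelial cells had the highest mean level of Tfrc, Slc40a1, Fth1, Ftl1, Ncoa4 and Gpx4. Tfrc was highest in endothelial cells, through which iron enters the brain. It stood at 325, 407 and 339 CPM in the Sevoflurane libraries and at 299.9, 415 and 310.3 CPM in the Control libraries. Its mean over 6 libraries was 9.11 times that of the next class, oligodendrocyte precursors, and the remaining 7 classes lay between 20.4 and 38.3 CPM with overlapping libraries. Slc40a1, the only known cellular iron exporter of mammals, was concentrated in endothelial cells and microglia, with means over 6 libraries of 147 ± 54.6 and 98.9 ± 17.3 CPM (SD, n = 6), which overlapped. The next class, ependymal cells, had 6.95 ± 1.72 CPM and did not overlap with microglia.

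Ferritin was present in every class. Fth1 averaged 1018 ± 104 CPM in endothelial cells, 851 ± 163 in oligodendrocytes, 847 ± 274 in fibroblasts, 776 ± 169.9 in microglia and 714 ± 163 in ependymal cells (SD, n = 6 libraries), and each of these overlapped with its neighbour in the order. Neurons were lowest at 204 ± 50.7 CPM and did not overlap with oligodendrocyte precursors at 403 ± 123 CPM. Ftl1 was highest in endothelial cells at 489 ± 115 CPM and lowest in neurons at 18.7 ± 2.26 CPM. Its second place, in fibroblasts, rested on 1 library, Control 3, with 504.1 CPM against at most 134 CPM in the other 5. Ferritin genes have processed pseudogenes of near-identical sequence, so their counts are uncertain. The row Ftl1-ps1 of the tables held 4.35 to 5.12 CPM over all kept cells in Sevoflurane and 4.16 to 6.57 CPM in Control.

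Ncoa4, the cargo receptor for ferritin, had means between 16.0 CPM in neurons and 50.2 CPM in endothelial cells. Hmox1 was close to undetected: its 6 libraries held 10 UMIs in endothelial cells, 8 in microglia and 2 in ependymal cells in all, and no class mean exceeded 3.41 CPM, so no order of classes is given.

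Slc7a11 was concentrated in fibroblasts and astrocytes. Fibroblasts, a cell type of the meninges and vessel walls, averaged 1410 ± 552 CPM, 6.35 times the level in astrocytes at 222 ± 89.9 CPM (SD, n = 6), and the libraries of these classes did not overlap. Astrocytes were 4.39 times above endothelial cells, and neurons were lowest at 3.45 ± 1.17 CPM. Of all Slc7a11 UMIs of a library, astrocytes supplied 33.3%, 65.6% and 34.4% in Sevoflurane and 36.9%, 53.4% and 37.8% in Control. Fibroblasts supplied 35.7%, 13.6% and 41.3% in Sevoflurane and 37.9%, 25.9% and 44.3% in Control, the larger share in every library but Sevoflurane 2 and Control 2. Slc7a11 was also among the 10 leading genes of the fibroblast cluster, so its level there is a description.

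Acsl4 and Nfe2l2 were both highest in microglia, the resident immune cells of the brain. Acsl4 averaged 150.5 ± 23.7 CPM there, 2.01 times the level in astrocytes and with no overlap. Nfe2l2 averaged 145 ± 16.5 CPM in microglia and overlapped with endothelial cells at 107 ± 28.6 CPM, and neurons were lowest at 3.77 ± 0.686 CPM. Gpx4 was highest in endothelial cells at 215 ± 48.5 CPM and lowest in neurons at 34.4 ± 5.71 CPM, the only neighbours in its order that did not overlap being oligodendrocyte precursors and neurons.

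**Figure D1:**
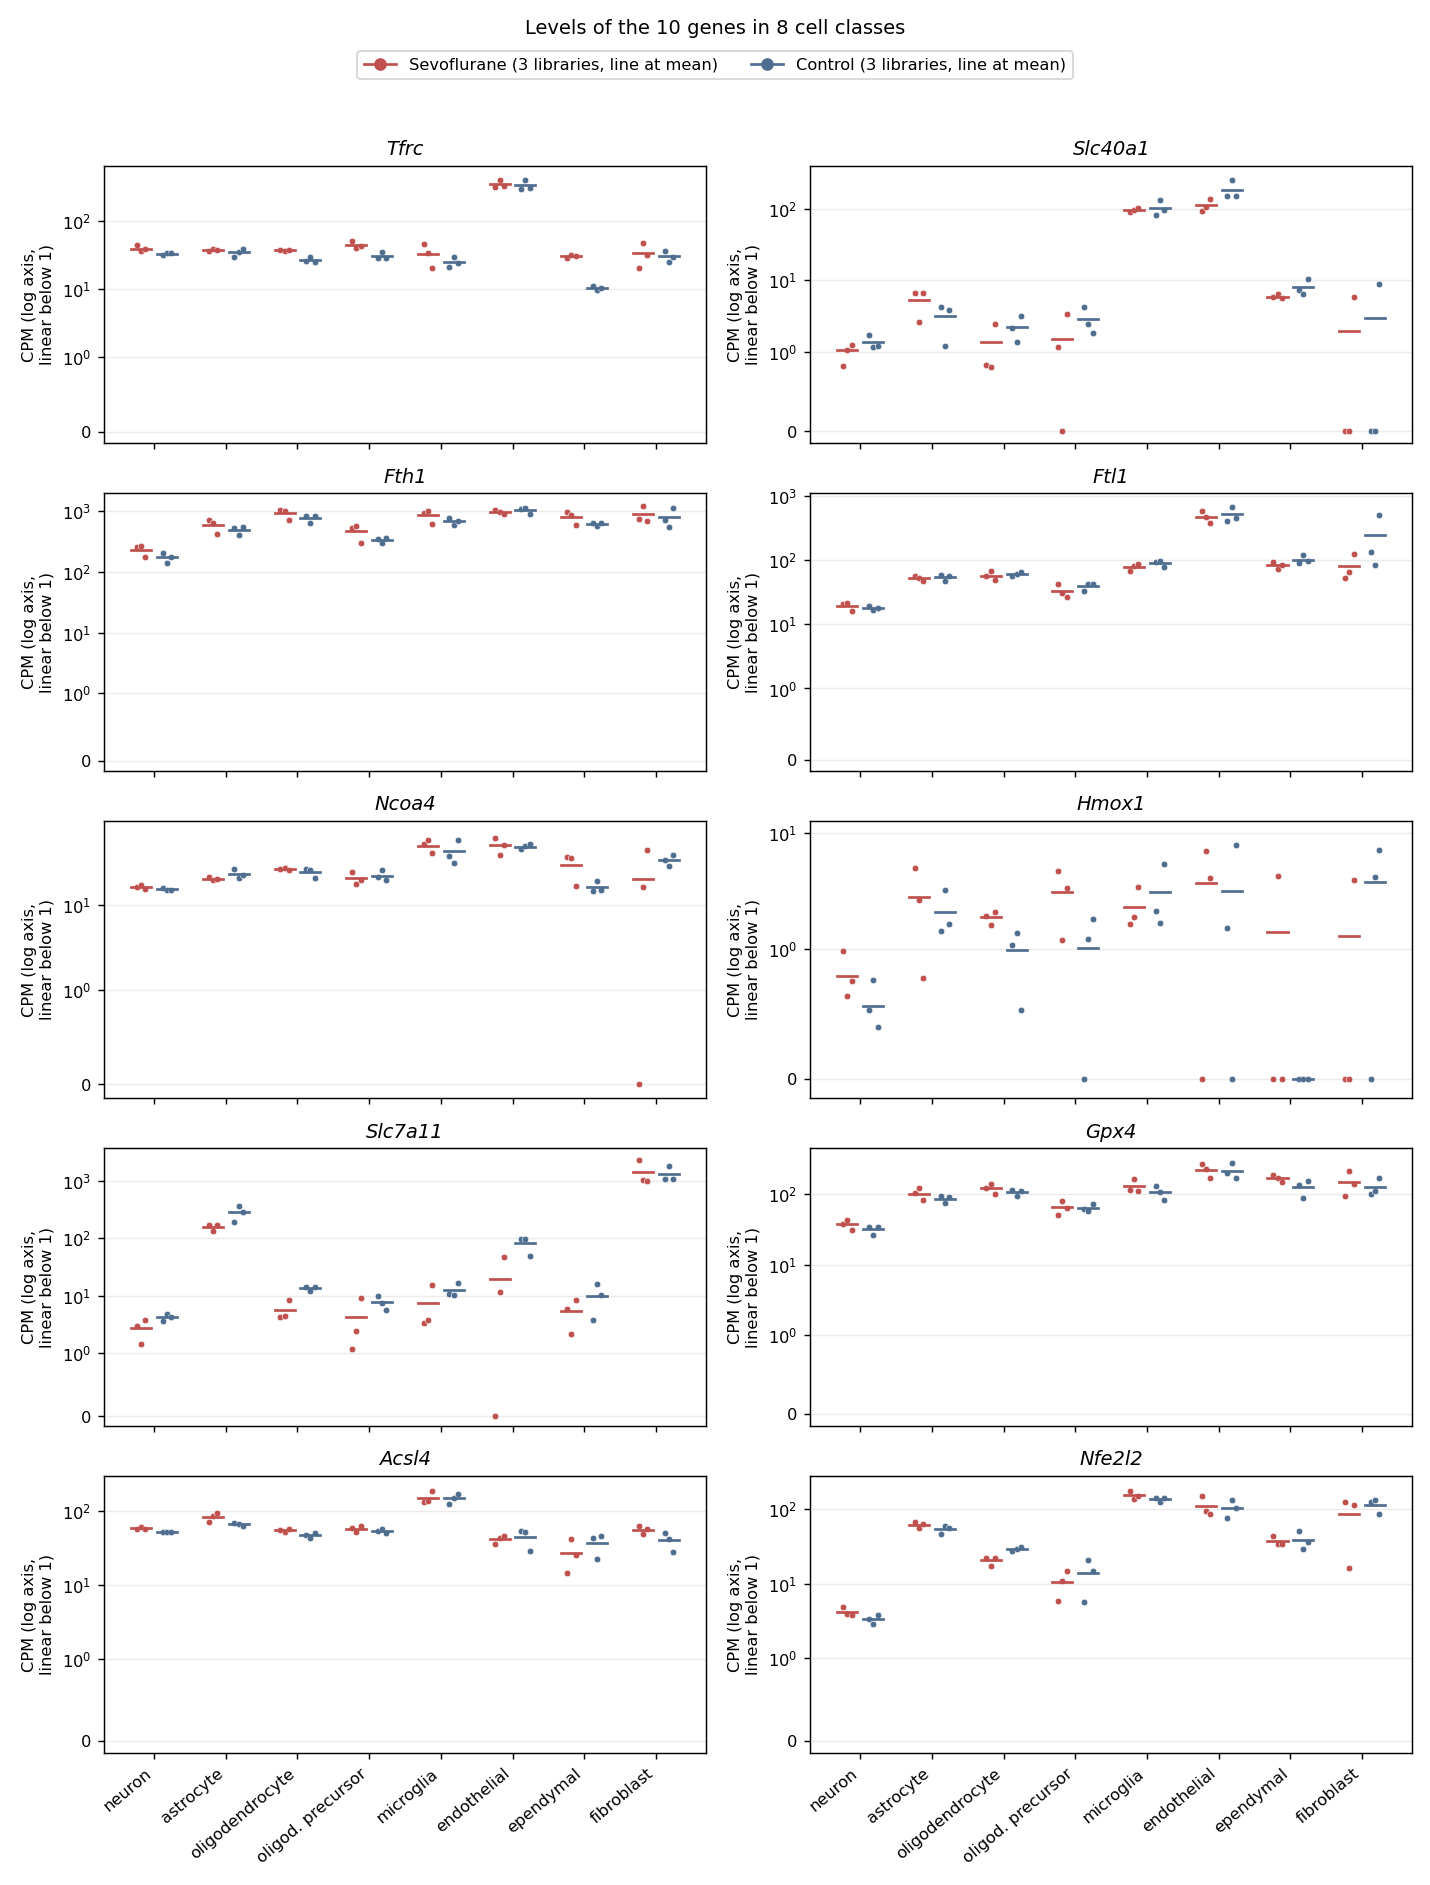
Level of each of the 10 genes (vertical axis, CPM with TMM factors, logarithmic above 1 and linear below) in 8 cell classes, with each point a library and a line at the mean of the 3 libraries of a group. Tfrc stands out in endothelial cells at 299.9 to 415 CPM and Slc7a11 in fibroblasts at 1027 to 2331 CPM, while Hmox1 stays under 8 CPM in all classes.

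Genes with the most similar pattern over the 48 class-by-library sums were ranked among 8991 genes averaging 20 CPM or more, as a description. The sums share libraries, depth and cell classes. Slc7a11 was closest to Ranbp3l, Vcam1 and Gjb6 (Pearson r = 0.90, 0.88 and 0.86), and Tfrc to Spock2, Slc7a1 and Grasp (0.93, 0.92 and 0.90). Slc40a1 was closest to F11r, Arap3 and Prkch (0.93, 0.90 and 0.87), and Nfe2l2 to Cd164, Cflar and Tor1aip1 (0.90 for each). Genes close to Gpx4 included Sod1 and Rplp1 (0.95 and 0.94), those close to Fth1 included Cox4i1 and Hsbp1 (0.96 and 0.95), and Ftl1 was closest to Tpt1, Nfe2l1 and Eif1 (0.94 for each). Ncoa4 was closest to 1110038F14Rik, Twf1 and Rala (0.90, 0.87 and 0.85), and Acsl4 to E2f3, Pag1 and Herc2 (0.84, 0.83 and 0.82). For Hmox1 the closest gene, Copg1, reached 0.63, followed by Socs6 at 0.62 and Zc3h18 at 0.61.

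The comparison of Sevoflurane with Control asked which of these genes differ 24 h after the exposure, and in which cells. Slc7a11 fell in astrocytes, and this was the only member past the threshold in any of the 14 sums tested (8 classes, 5 neuron subclasses and all kept cells). The test was the quasi-likelihood test of edgeR on summed UMIs with Benjamini-Hochberg (BH) adjustment over all genes of a class, at 0.05. In astrocytes, 1 of 8 members tested passed, beside 1.97% of all 12340 genes tested. In neurons no member of 10 passed, beside 4.09% of all genes, and none did with DESeq2. At an unadjusted p under 0.05 there were 3 of the 10 in neurons, beside 20.8% of all genes. The other classes had no call among their tested members, with edgeR or with DESeq2. Members under an unadjusted p of 0.05 were 2 of 8 in astrocytes (14.6% of all genes), 3 of 8 in oligodendrocytes (13.6%) and 2 of 7 in oligodendrocyte precursors (9.81%). They were 0 of 8 in microglia (9.42%), 2 of 9 in endothelial cells (13%), 1 of 5 in ependymal cells (9.63%) and 1 of 8 in fibroblasts (4.81%). The shares of all genes called by edgeR after adjustment were 0.52% in oligodendrocytes, 0.0912% in oligodendrocyte precursors, 0.325% in microglia, 2.06% in endothelial cells, 0.567% in ependymal cells and 0.0137% in fibroblasts. Among the tested members, groups did not overlap for 2 of 10 in neurons (26.8% of all genes), 2 of 8 in astrocytes (19.6%), 4 of 8 in oligodendrocytes (18.9%), 1 of 7 in oligodendrocyte precursors (14.8%) and 2 of 9 in endothelial cells (18.6%).

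**Figure D2:**
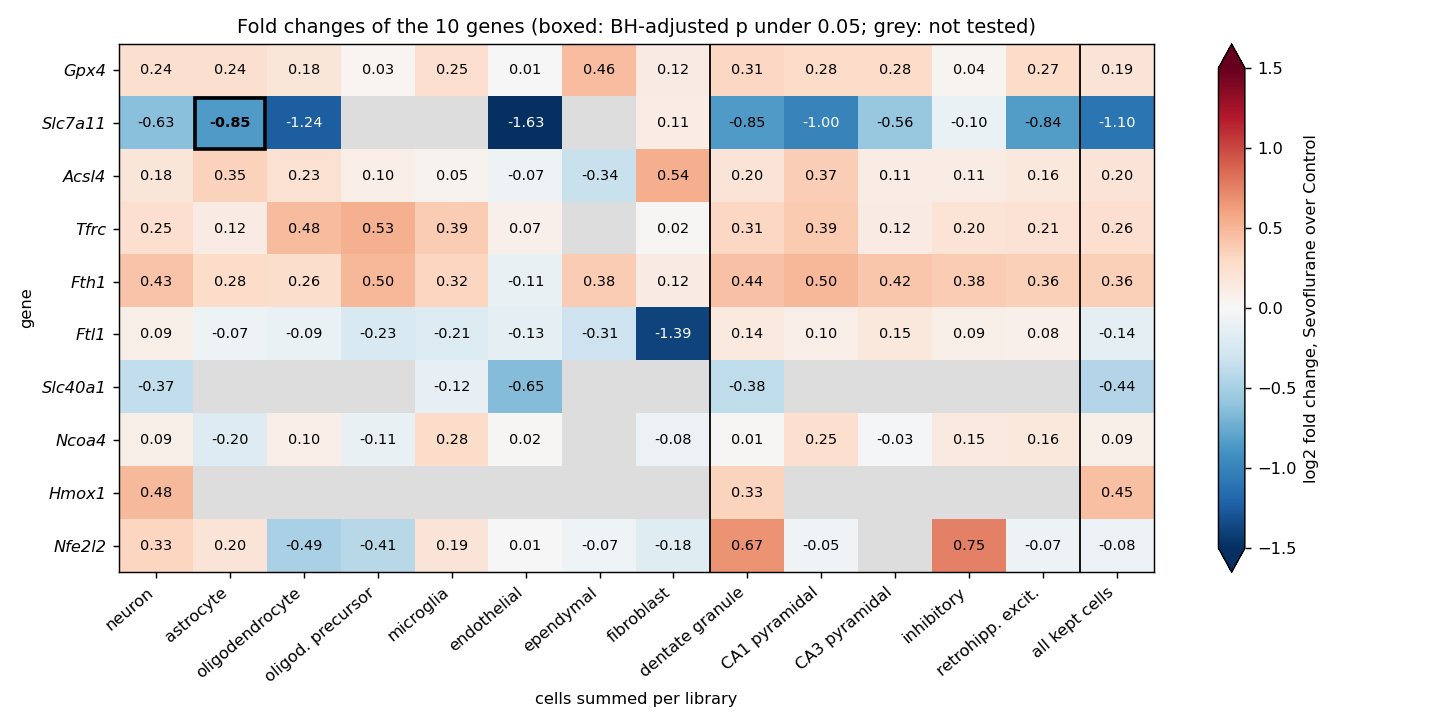
Log2 fold change of each gene (rows), Sevoflurane over Control, in 8 classes, 5 neuron subclasses and all kept cells (columns), with red for higher and blue for lower in Sevoflurane, a box where the BH-adjusted p of edgeR was under 0.05, and grey where a gene was too low to test. The only box is Slc7a11 in astrocytes at -0.85.

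Slc7a11 in astrocytes stood at 172, 135 and 169 CPM in the Sevoflurane libraries, against 193, 370.0 and 292 CPM in the Control libraries. Every Sevoflurane library lay below every Control library, as in 19.6% of all genes tested in astrocytes whose groups did not overlap in either direction, and the nearest pair was Sevoflurane 1 and Control 1. The mean was 159 ± 20.4 CPM in Sevoflurane and 285 ± 88.8 CPM in Control (SD, n = 3 each), a log2 fold change of -0.85 (SE 0.19, edgeR adjusted p = 0.0344). It rested on 209 to 436 UMIs per library in Sevoflurane and 407 to 916 in Control. The spread was wider in Control, where Control 2 was highest. Without Control 2 the log2 fold change was -0.61 and the adjusted p of edgeR 0.224, and without Control 3, Sevoflurane 2 or Sevoflurane 3 the adjusted p was 0.131, 0.167 or 0.0581. Slc7a11 spans 551089 bases, and removing a smooth trend of each library with gene span gave -0.67 and an adjusted p of 0.109. With clustering at resolution 2 the astrocytes fell into clusters of 1335 and 2784 cells, of which 66.0% and 37.6% came from Sevoflurane. The part of this mix in the astrocyte difference was not tested.

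**Figure D3:**
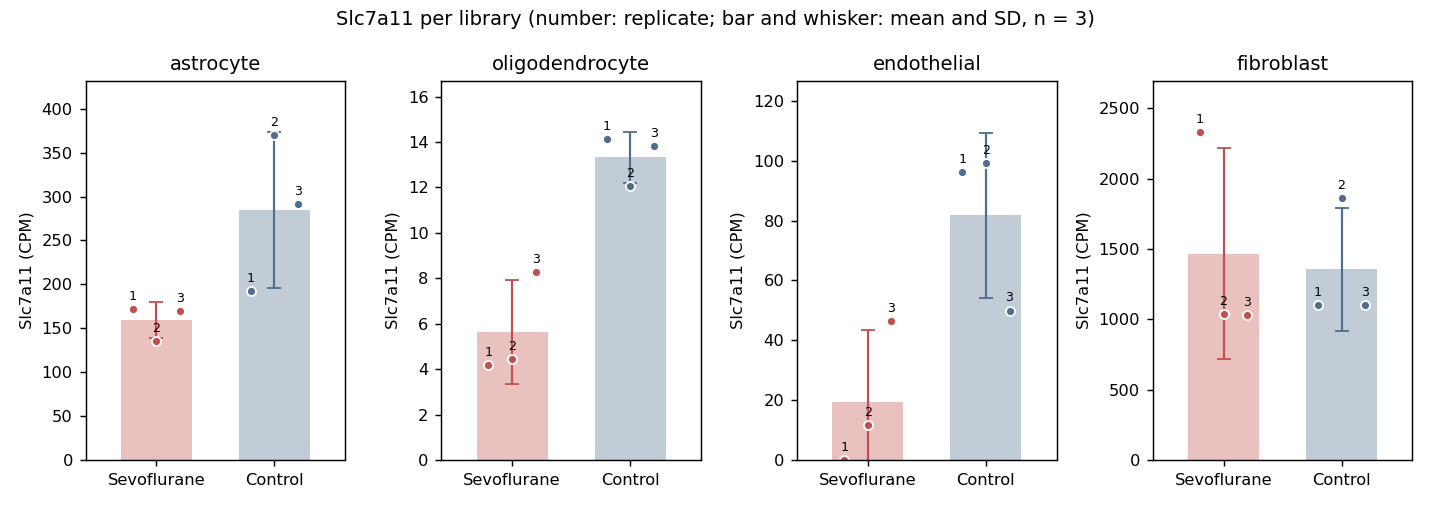
Slc7a11 (vertical axis, CPM, starting at 0) in astrocytes, oligodendrocytes, endothelial cells and fibroblasts, with a numbered point per library and bars and whiskers for the mean and SD of 3 libraries. In the first 3 classes all Sevoflurane libraries lie below all Control libraries, and in fibroblasts the groups overlap, with Sevoflurane 1 highest at 2331 CPM.

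The share of astrocytes with at least 1 Slc7a11 UMI showed the same order. It was 28.1%, 28.0% and 32.8% in Sevoflurane and 34.8%, 50.4% and 40.8% in Control. With each cell thinned to 1000 UMIs it was 12.7%, 12.2% and 13.5% in Sevoflurane and 14.53%, 25.99% and 21.1% in Control, leaving out 42 Sevoflurane and 44 Control astrocytes of lower depth. The groups did not overlap in either form, and the two-sided exact permutation p was 0.1, the smallest that 3 against 3 libraries allow. In neurons, which had the lowest level, the thinned share was 0.314% in Sevoflurane and 0.437% in Control, and the thinned shares of astrocytes lay far above it. Astrocytes with 5 or more Slc7a11 UMIs numbered 4 of 430, 3 of 735 and 8 of 760 in Sevoflurane, and 8 of 701, 34 of 804 and 18 of 674 in Control.

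Because fibroblasts carry the highest level of Slc7a11, their own RNA was followed in the other classes. Fibroblasts made up 0.445%, 0.362% and 2.28% of kept cells in Sevoflurane and 2.12%, 1.17% and 2.27% in Control. In astrocytes the summed level of the 9 fibroblast markers was 170 to 226 CPM in Sevoflurane and 177 to 216 CPM in Control, with Col3a1 and Igf2 at 0 in the libraries Sevoflurane 1 and Sevoflurane 2 and Igf2 at 0 in Control 1. Slc6a13, the marker among them that was compared with its level in fibroblasts, stood in astrocytes at 0.149% to 0.949% of that level in Sevoflurane and at 0.197% to 0.53% in Control. The same percentages of the fibroblasts' Slc7a11 come to 3.15 to 9.02 CPM in Sevoflurane and 3.23 to 5.08 CPM in Control, and the part of that RNA in the astrocyte difference was not tested.

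The sequence upstream of Slc7a11 is shown as the promoter of the only member that passed the test. It was taken from RefSeq (GRCm38.p6) and covers the 250 bases before the start of transcription, chr3:50443614-50443863 on the minus strand. Capitals mark 2 matches to TGATGNAA, the core of the amino acid response element, which ATF4, a factor that raises Slc7a11 when amino acids are short, is known to bind.
Slc7a11 promoter: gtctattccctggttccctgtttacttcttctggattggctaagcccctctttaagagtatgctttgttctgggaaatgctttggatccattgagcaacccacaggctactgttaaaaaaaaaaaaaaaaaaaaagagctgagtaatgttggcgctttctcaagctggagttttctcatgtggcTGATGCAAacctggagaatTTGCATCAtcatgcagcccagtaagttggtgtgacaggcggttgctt
The matches begin 66 and 47 bases before the start, in opposite orientation, and the motif was found on either strand in 3.97% of 32851 promoter windows, each of the 250 bases before and 50 after a start. TGACNNNGC, the core of the antioxidant response element bound by NRF2, was found in 12.4% of the windows, among them 1 of Nfe2l2 and 1 of Ncoa4, and these letters are not in the Slc7a11 window. Windows were found for 8 of the 10 genes, all but Slc40a1 and Hmox1.

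Outside astrocytes, Slc7a11 was lower in Sevoflurane in most classes but passed in none. In oligodendrocytes it stood at 4.16, 4.46 and 8.27 CPM in Sevoflurane against 14.1, 12.05 and 13.8 CPM in Control, from 11 to 24 and 26 to 39 UMIs per library. The groups did not overlap (18.9% of all genes in oligodendrocytes), and the log2 fold change was -1.24 (SE 0.29, edgeR adjusted p = 0.09). In endothelial cells it stood at 0, 11.5 and 46.4 CPM in Sevoflurane against 96.4, 99.1 and 49.96 CPM in Control (log2 fold change -1.63, SE 0.46, edgeR adjusted p = 0.0784), again without overlap (18.6% of all genes). Library Sevoflurane 3, the one with most fibroblasts of its group, was highest of Sevoflurane in both. Without it edgeR gave -1.62 with an adjusted p of 0.0412 in oligodendrocytes and -3.36 with an adjusted p of 0.00428 in endothelial cells. The fits that left out a library ran from -1.62 to -1.03 in oligodendrocytes and from -3.36 to -1.30 in endothelial cells. Slc7a11 passed in no other of those fits in these 2 classes.

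Fibroblast RNA was followed beside both. In oligodendrocytes the 9 fibroblast markers summed to 50.9, 69.7 and 51.2 CPM in Sevoflurane and to 71.3, 57.5 and 75.8 CPM in Control, with Col3a1 at 0 in the first and second library of both groups and Slc6a13 and Igf2 at 0 in Sevoflurane 2. Slc6a13 stood there at 0.281, 0 and 1.39 CPM in Sevoflurane and 1.42, 1.31 and 2.06 CPM in Control. The groups overlapped, with Sevoflurane 3 above Control 2. At those shares of its fibroblast level, the fibroblasts' Slc7a11 would come to 1.07, 0 and 2.66 CPM in Sevoflurane and to 4.99, 5.58 and 4.92 CPM in Control, and its part in the oligodendrocyte difference was not tested.

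In endothelial cells fibroblast RNA was followed in the same way. The 9 fibroblast markers summed to 69.2, 91.2 and 114 CPM in endothelial cells of Sevoflurane and to 187, 291 and 144 CPM in Control. Col1a1 was at 0 in all 3 Sevoflurane libraries, with Col3a1, Ranbp3l and Igf2 also at 0 in the first and second, and Lum and Igf2 were at 0 in Control 3. Slc6a13 stood at 18.5, 4.34 and 16.8 CPM in Sevoflurane and 24.4, 12.3 and 14.9 CPM in Control, with overlap. At the percentages given by Slc6a13, the fibroblasts' Slc7a11 would come to 70.1, 7.94 and 32.0 CPM in Sevoflurane. In Control it would come to 85.8, 52.6 and 35.7 CPM. Sevoflurane 1, at 70.1 CPM by this reckoning, held 0 CPM of Slc7a11 in endothelial cells. The part of fibroblast RNA in the endothelial difference was not tested. In fibroblasts themselves Slc7a11 averaged 1466 ± 749 CPM in Sevoflurane and 1353 ± 438 CPM in Control (SD, n = 3 each), with overlapping groups and a log2 fold change of 0.11 (SE 0.35, edgeR adjusted p = 0.999).

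In neurons Slc7a11 was near its floor, at 2.99, 1.41 and 3.71 CPM in Sevoflurane and 3.59, 4.84 and 4.14 CPM in Control (log2 fold change -0.63, SE 0.31, edgeR adjusted p = 0.301). Over all kept cells it stood at 10.2, 8.41 and 19.0 CPM in Sevoflurane and 22.8, 29.4 and 28.5 CPM in Control (log2 fold change -1.10, SE 0.28, edgeR adjusted p = 0.0932, and 0.0413 with DESeq2). In that sum a lower share of a cell class and less RNA per cell cannot be told apart. No member of 10 passed edgeR there, beside 2.28% of all genes. There 3 members did not overlap (25.9% of all genes), 3 had an unadjusted p under 0.05 (19.9%), and DESeq2 called 3, Slc7a11, Acsl4 and Tfrc (7.14%). Whether the effect on Slc7a11 differed between classes was tested as an interaction, and the effect in neurons minus that in astrocytes was 0.17 (SE 0.19, edgeR adjusted p = 0.834), and that in oligodendrocytes minus astrocytes was -0.39 (SE 0.32, adjusted p = 0.735). The approximate 95% intervals of these differences, -0.20 to 0.53 and -1.01 to 0.23, do not show that the effects are alike.

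**Figure D4:**
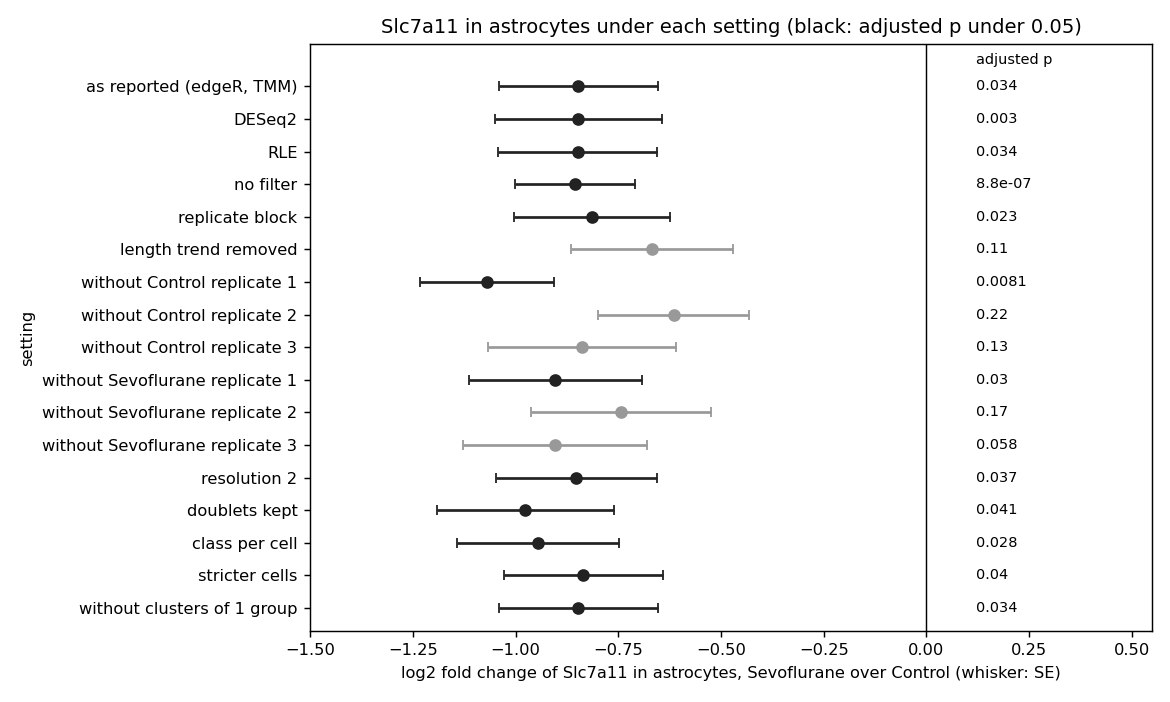
Log2 fold change of Slc7a11 in astrocytes (horizontal axis, Sevoflurane over Control, whiskers for the SE) under each setting (vertical axis), with the BH-adjusted p at the right and grey where it is 0.05 or above. All settings lie below 0, and 5 are grey: the length trend removed, and leaving out Control 2, Control 3, Sevoflurane 2 or Sevoflurane 3.

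Gpx4, the enzyme that consumes the glutathione made from this cystine, did not pass in any class. In astrocytes it stood at 101, 121 and 80.8 CPM in Sevoflurane and 91.9, 74.3 and 91.8 CPM in Control, with overlapping groups (log2 fold change 0.24, SE 0.16, edgeR adjusted p = 0.542). Its log2 fold change was above 0 in 8 of 8 classes, from 0.01 to 0.46, with adjusted p-values of 0.395 to 0.999. The classes of a library share its preparation and are not independent.

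Acsl4 had higher values in every Sevoflurane library in neurons, astrocytes and oligodendrocytes, but passed in none. In neurons it stood at 57.5, 60.8 and 57.5 CPM in Sevoflurane and 51.6, 51.8 and 51.6 CPM in Control, without overlap (26.8% of all genes in neurons). The log2 fold change was 0.18 (SE 0.05, edgeR adjusted p = 0.0955). In CA1 pyramidal neurons, the output cells of the hippocampus, it was 62.9, 62.7 and 56.1 CPM in Sevoflurane and 44.9, 51.0 and 44.8 CPM in Control (log2 fold change 0.37, SE 0.09, edgeR adjusted p = 0.0736, and 0.0261 with DESeq2). Acsl4 lies on the X chromosome, and without Sevoflurane 1 its log2 fold change in CA1 neurons was 0.34. In microglia, where its level was highest, the groups overlapped at 134, 138 and 187 CPM in Sevoflurane and 124, 153 and 169 CPM in Control.

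Tfrc showed no difference in endothelial cells, where it is highest, beyond the spread between libraries (log2 fold change 0.07, SE 0.20, edgeR adjusted p = 0.934). Its log2 fold change lay above 0 in all 7 classes tested, endothelial cells included. In neurons it stood at 44.5, 36.2 and 38.5 CPM in Sevoflurane and 32.1, 33.7 and 34.2 CPM in Control, without overlap (log2 fold change 0.25, SE 0.08, edgeR adjusted p = 0.143). In oligodendrocytes, whose iron-rich enzymes serve myelin synthesis, it stood at 38.3, 36.9 and 37.6 CPM in Sevoflurane and 26.1, 29.6 and 24.99 CPM in Control. The groups did not overlap, and the log2 fold change of 0.48 (SE 0.14, edgeR adjusted p = 0.167) did not pass. In dentate granule neurons it was 36.0, 36.6 and 32.2 CPM in Sevoflurane and 27.2, 27.8 and 29.4 CPM in Control, also without overlap (24.5% of all genes there), with a log2 fold change of 0.31 (SE 0.09, edgeR adjusted p = 0.0902). Tfrc was too low to test in ependymal cells, where 10, 15 and 11 UMIs gave 28.7, 31.8 and 31.0 CPM in Sevoflurane and 3, 3 and 2 UMIs gave 10.99, 9.6 and 10.2 CPM in Control.

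Fth1 was above 0 in log2 fold change in 7 of 8 classes and passed in none. In neurons it stood at 258, 269 and 176 CPM in Sevoflurane and 206, 140 and 175 CPM in Control, with Sevoflurane 3 among the Control libraries (log2 fold change 0.43, SE 0.18, edgeR adjusted p = 0.227). Sevoflurane 3 was the lowest library of its group in 8 of 8 classes. In CA1 neurons the groups did not overlap, at 227, 234 and 186 CPM in Sevoflurane and 185, 123 and 151 CPM in Control (22.5% of all genes there), and the log2 fold change was 0.50 (SE 0.14, edgeR adjusted p = 0.118, and 0.0037 with DESeq2). Without Sevoflurane 3, Fth1 reached 0.74 in oligodendrocyte precursors (edgeR adjusted p = 0.0428) and 0.57 in inhibitory neurons (edgeR adjusted p = 0.0106). These were the highest of the fits that left out a library, which ran from 0.31 to 0.74 and from 0.27 to 0.57. Fth1 passed in no other of those fits in these cells. Ftl1 gave no such pattern, with log2 fold changes from -0.31 to 0.09 in 7 classes, and in fibroblasts -1.39 (SE 0.54, edgeR adjusted p = 0.99), where Control 3 stood at 504.1 CPM and the value without that library was -0.20.

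Among the neuron subclasses no member passed edgeR. The count at an unadjusted p under 0.05 was 5 of 10 in dentate granule neurons (18.9% of all genes), 4 of 8 in CA1 neurons (17.0%), 0 of 7 in CA3 neurons (13.1%), 2 of 8 in inhibitory neurons (21.4%) and 0 of 8 in retrohippocampal excitatory neurons (16.1%). DESeq2 called 2 in CA1 neurons, Acsl4 and Fth1, beside 3.65% of all genes there, and none in the others. After adjustment edgeR called all genes at 3.6%, 1.25%, 0.489%, 7.82% and 1.84% in these subclasses, in the same order. Members without overlap numbered 3 of 10 in dentate granule neurons (24.5% of all genes) and 4 of 8 in CA1 neurons (22.5%). There were none in the other 3, where 18.6% (CA3), 26.5% (inhibitory) and 21.6% (retrohippocampal) of all genes did not overlap.

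Slc40a1 in endothelial cells stood at 92.9, 106 and 135 CPM in Sevoflurane and 151, 248 and 149.9 CPM in Control, without overlap, and the log2 fold change of -0.65 (SE 0.24, edgeR adjusted p = 0.201) did not pass. In microglia the groups overlapped, at 89.1, 94.3 and 103 CPM in Sevoflurane and 81.0, 131 and 95.2 CPM in Control. Ncoa4 had overlapping groups in all 8 classes, with log2 fold changes from -0.20 to 0.28 in the 7 classes tested. Hmox1 could be tested only in neurons among the classes, at 0.99, 0.641 and 0.753 CPM in Sevoflurane and 0.531, 0.764 and 0.4 CPM in Control (log2 fold change 0.48, SE 0.30, edgeR adjusted p = 0.398).

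Nfe2l2 had log2 fold changes above 0 in 4 classes and below 0 in 4. In oligodendrocytes it stood at 22.2, 17.04 and 22.1 CPM in Sevoflurane and 27.1, 28.9 and 30.8 CPM in Control, without overlap (log2 fold change -0.49, SE 0.16, edgeR adjusted p = 0.223). In astrocytes it was 66.7, 55.2 and 63.7 CPM in Sevoflurane and 46.4, 59.0 and 55.5 CPM in Control, and in microglia 173, 138 and 151 CPM in Sevoflurane and 143, 124 and 139 CPM in Control, with overlap in both. The effect in oligodendrocytes minus that in astrocytes was -0.66 (SE 0.18, edgeR adjusted p = 0.107), and that in neurons minus oligodendrocytes was 0.81 (SE 0.22, adjusted p = 0.139), so neither passed. None of the 10 members passed in the 6 pairs of classes, with 1 at an unadjusted p under 0.05 in each of the 3 pairs with oligodendrocytes, each time Nfe2l2, and 0 in the other 3. Over all genes, 6.67% to 11.2% of a pair had an unadjusted p under 0.05. Between 0.153% and 1.93% of all genes passed in a pair.

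The wider pathway was read from 132 related genes in 7 lists. Over the classes, calls came in neurons (3 higher and 2 lower of 121 tested), astrocytes (3 higher of 103), endothelial cells (3 higher and 1 lower of 78) and ependymal cells (1 higher of 68), and there were none in oligodendrocytes, oligodendrocyte precursors, microglia and fibroblasts. These are 4.13% of the related genes tested in neurons beside 4.09% of all genes, 2.91% beside 1.97% in astrocytes, 5.13% beside 2.06% in endothelial cells and 1.47% beside 0.567% in ependymal cells. The median log2 fold change of the related genes was 0.07 in neurons, 0.09 in astrocytes, -0.04 in endothelial cells and 0.04 in ependymal cells, beside 0.02, 0.01, 0.01 and 0.00 over all genes, in that order.

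In astrocytes the called genes came from the list of substrates and drivers of lipid peroxidation (Far1 and Por) and from that of ferroptosis defence beside Gpx4 (Dhcr7). Far1, which makes fatty alcohols for ether lipids that can be peroxidised, stood at 203, 176 and 223 CPM in Sevoflurane and 125, 108 and 131 CPM in Control (log2 fold change 0.73, SE 0.14, edgeR adjusted p = 0.0111). Por, the reductase that passes electrons to cytochrome P450 enzymes and can drive lipid peroxidation, stood at 124, 125 and 116 CPM in Sevoflurane and 82.4, 73.1 and 76.4 CPM in Control (log2 fold change 0.65, SE 0.12, edgeR adjusted p = 0.0135). Dhcr7, which makes cholesterol from 7-dehydrocholesterol, a lipid that traps peroxyl radicals, stood at 40.4, 40.3 and 61.8 CPM in Sevoflurane and 24.6, 24.6 and 26.4 CPM in Control (log2 fold change 0.94, SE 0.19, edgeR adjusted p = 0.0185). All 3 rose without overlap, and each lost its call when some libraries were left out, with adjusted p-values up to 0.115, 0.12 and 0.13.

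In endothelial cells, which came to 42 to 170 cells per library, Maff, a small MAF partner of NRF2, stood at 227, 109 and 90.1 CPM in Sevoflurane and 33.7, 20.9 and 18.4 CPM in Control (log2 fold change 2.31, SE 0.37, edgeR adjusted p = 0.00362). Its call held in all 6 fits that left out a library. Gpx1, the cytosolic glutathione peroxidase, stood at 361, 212 and 149 CPM in Sevoflurane and 50.5, 109.6 and 113 CPM in Control (log2 fold change 1.36, SE 0.32, edgeR adjusted p = 0.0379). Sat1, a polyamine catabolic enzyme linked to lipid peroxidation, stood at 294, 176 and 137 CPM in Sevoflurane and 75.0, 70.4 and 78.9 CPM in Control (log2 fold change 1.33, SE 0.26, edgeR adjusted p = 0.0133). In these 3 genes Sevoflurane 1 was the highest library. Without it Gpx1 was at 1.03 (edgeR adjusted p = 0.0725), and its call held in 2 of the 6 fits that left out a library, with adjusted p-values up to 0.188. Sat1 lost its call only without Control 1 among these fits (edgeR adjusted p = 0.0834). Bmp6, which induces hepcidin in the liver, was the gene that fell, at 0, 13.9 and 8.19 CPM in Sevoflurane and 42.8, 36.5 and 84.1 CPM in Control (log2 fold change -2.56, SE 0.50, edgeR adjusted p = 0.0124). Its call was lost without Control 3 or Sevoflurane 3 (edgeR adjusted p = 0.0729 and 0.0512). Bmp6 was also among the 10 leading genes of the fibroblast cluster, whose summed markers were lower in endothelial cells of Sevoflurane as given above, and the part of that RNA in the difference was not tested.

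In neurons, Nqo1, a quinone reductase and target of NRF2, stood at 2.55, 2.54 and 3.19 CPM in Sevoflurane and 1.26, 1.75 and 1.22 CPM in Control (log2 fold change 0.96, SE 0.19, edgeR adjusted p = 0.0394). Me1, the NADPH-producing malic enzyme, stood at 35.4, 39.5 and 43.4 CPM in Sevoflurane and 52.0, 52.9 and 52.8 CPM in Control (log2 fold change -0.42, SE 0.08, edgeR adjusted p = 0.0328). Maff (1.31, adjusted p = 0.0478), the lipoxygenase-family gene Aloxe3 (0.40, adjusted p = 0.047) and the iron chaperone Pcbp2 (-0.26, adjusted p = 0.0499) lay close to the threshold of edgeR, each value a log2 fold change. All of these neuronal calls except Me1 were lost in each of the 6 fits that left out a library, and Me1 kept its call only without Sevoflurane 3. In ependymal cells Acsl3, which activates monounsaturated fatty acids, stood at 321, 406 and 386 CPM in Sevoflurane and 212, 122 and 199 CPM in Control (log2 fold change 1.08, SE 0.21, edgeR adjusted p = 0.0099). Without Control 2, its lowest library, Acsl3 was at 0.85 (edgeR adjusted p = 0.249), and the call held in the other 5 such fits.

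**Figure D5:**
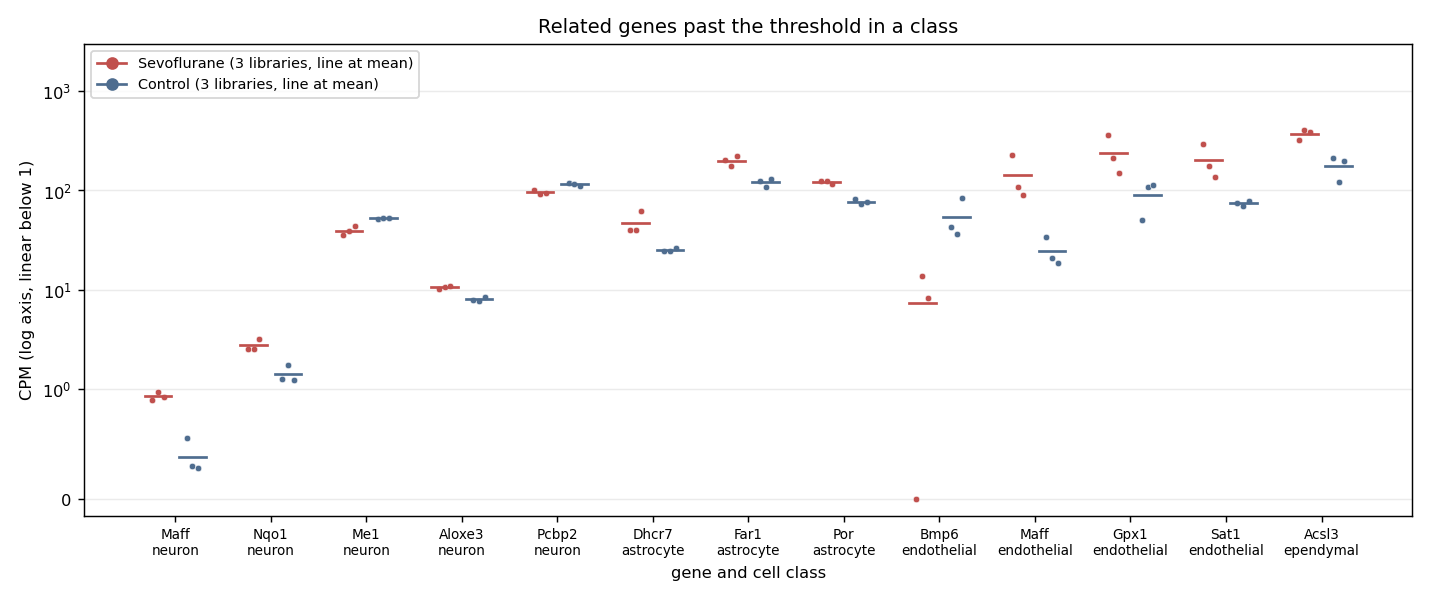
Level (vertical axis, CPM, logarithmic above 1 and linear below) of the related genes that passed the test in a class (horizontal axis, gene and class), with each point a library and a line at the mean of 3 libraries. Points of Sevoflurane and Control do not overlap for any of them; Me1 and Pcbp2 in neurons and Bmp6 in endothelial cells are lower in Sevoflurane, and the others are higher.

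Within neuron subclasses, dentate granule neurons had 1 related gene higher, Ephx1 (log2 fold change 1.13, edgeR adjusted p = 0.0298), and 1 lower, Pcbp2 (-0.27, adjusted p = 0.0497). Both calls were lost in each of the 6 fits that left out a library, with edgeR adjusted p-values of 0.0586 to 0.116 for Ephx1 and 0.0735 to 0.164 for Pcbp2. Inhibitory neurons had 2 higher, Bmp6 (1.39, adjusted p = 0.0401) and the NADPH oxidase Nox4 (1.28, adjusted p = 0.0291), and 2 lower, among them Mafg (-0.40, adjusted p = 0.0373). Of the 6 fits that left out a library, 2 kept the call of Bmp6, 2 that of Nox4 and 2 that of Mafg, and Nox4 did not pass with DESeq2 (adjusted p = 0.106). With the Zfhx3-led cluster and the other clusters of 1 group left out, Bmp6 and Mafg no longer passed in inhibitory neurons. Over all kept cells only Maff passed, at 1.49 (edgeR adjusted p = 0.0449), and its call was lost in each of the 6 fits that left out a library (adjusted p = 0.0651 to 0.139) and with the length trend removed (adjusted p = 0.0655).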

How the data were processed

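The 6 libraries (3 Sevoflurane, 3 Control) were made with the 10x 3′ kit version 3.1, per the labels' protocols, and the deposited matrices hold raw UMI counts per gene and cell, whose headers name Cell Ranger 6.1.1. Per the submitters' processing notes, Seurat and CASAVA 1.8 were also used, and the genome build is not given in the sources used here. Cells under 500 UMIs or 300 genes, or above 20% mitochondrial UMIs, were dropped, the cells with the highest doublet scores were removed, and the rest were clustered with scanpy 1.11.5 (2000 variable genes without members and related genes, 30 components, resolution 1). Clusters were named from marker lists, and the scoring limits were set after the clusters were seen. UMI counts were summed per library and class and tested with edgeR 4.0.16 (TMM, filterByExpr, quasi-likelihood, BH over all genes of a class, threshold 0.05), with the class-by-group interaction tested with library as a block. CPM values use TMM factors unless said otherwise. The levels of fibroblast markers in other classes, Slc6a13 among them, and the fibroblasts' Slc7a11 reckoned from Slc6a13 were scaled to total UMIs without TMM factors. DESeq2 1.42.0 was an alternative, beside other normalization, filters, gene span (31184 of 31253 genes matched to GENCODE M21), clustering, doublet and cell settings, a replicate block, and leaving out each library. A setting without clusters nearly all of 1 group was added after the data were seen. The tests were checked on simulated data. There the interaction test recovered fewer of the changed genes than the limit first set, and a lower limit was set for it after that run. All 10 members were named. Related genes past the threshold were named, at most 6 per class by size of change, and for each member the 3 genes with the highest correlation, except for a few genes that are not reported here. The members and gene lists were chosen with earlier results of these data known. Intervals of differences use the standard error of edgeR with a normal distribution, so they are approximate and narrower than its test would give. Choroid plexus and Cajal-Retzius cells were not tested because a library held fewer than 20.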

Additional observations from a re-analysis of the deposited data

Results flagged for a closer look

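Bmp6, a ligand of the bone morphogenetic protein family that induces hepcidin in the liver, was higher in every Sevoflurane library in inhibitory neurons and lower in every Sevoflurane library in endothelial cells. It stood at 7.57, 12.48 and 6.96 CPM in Sevoflurane and 1.51, 4.04 and 4.68 CPM in Control in inhibitory neurons, and at 0, 13.9 and 8.19 CPM in Sevoflurane and 42.8, 36.5 and 84.1 CPM in Control in endothelial cells. The log2 fold changes lay 3.96 apart, and the difference between these cell types was not tested. Without the clusters nearly all of 1 group, among them 635 inhibitory cells of which 97.5% came from Sevoflurane, the inhibitory value was -0.79 (edgeR adjusted p = 0.515).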

How the results depend on the processing

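The number of members called was 1 in astrocytes and 0 in the other sums. With the length trend removed it was 0 in astrocytes. Without the filter on low counts it was 1 in oligodendrocytes and 1 in endothelial cells (Slc7a11 in both), 1 in fibroblasts (Ftl1), 1 in CA1 neurons and 1 in inhibitory neurons (Fth1 in both), and Nfe2l2 became 1 call for neurons minus oligodendrocytes. With doublets kept it was 1 in endothelial and 1 in ependymal cells (Slc7a11). With DESeq2 it was 2 in CA1 neurons and 3 over all kept cells, and with each cell classed on its own 1 in CA1 neurons (Fth1). Related genes gave 13 calls over the classes, 23 without the filter and 4 with each cell classed on its own. Leaving out 1 library gave 0 to 1 members in astrocytes, oligodendrocytes, oligodendrocyte precursors, endothelial cells, dentate granule neurons, inhibitory neurons and all kept cells, 0 in the other sums and in the class differences, and 4 to 10 related calls. The cause of these changes was not tested.

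Sign changed for Slc40a1 in neurons (0.068), Ftl1 in oligodendrocyte precursors (0.027) and Acsl4 in ependymal cells (0.24) with each cell classed on its own, for Nfe2l2 in oligodendrocyte precursors without Control 2 (0.11), and for Bmp6 in inhibitory neurons without clusters of 1 group (-0.79), all log2 fold changes and none of them past the threshold. Of 486 values that left out a library, 394 kept direction and side of the threshold, and of 793 under other settings 732 did.

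With the replicate number as a block, Slc7a11 in astrocytes was -0.81 (edgeR adjusted p = 0.023). Same-numbered libraries correlated at -0.219 to 0.0602, and 6 of 42 correlated best with their own number. These correlations gave no sign of pairing by number. They come from sums that share cells and libraries, and a batch shared by number was not tested. Under the block the calls of Maff, Nqo1, Me1, Aloxe3 and Pcbp2 in neurons, Gpx1 in endothelial cells, Ephx1 and Pcbp2 in dentate granule neurons, Nox4 and Mafg in inhibitory neurons and Maff over all kept cells were lost (edgeR adjusted p = 0.0606 to 0.165). Endothelial, ependymal and fibroblast sums came from as few as 42, 47 and 29 cells in a library, which limits what they can show.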
